A study of Gallus gallus with 24 samples.

Results

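The genes described here are 187 of the 17136 Ensembl genes measured in chick intestinal mesoderm. They were higher in hindgut than in control midgut and also higher in midgut that carried Hoxd13. They were chosen from the measured values themselves, on the scale log2(CPM + 1), where CPM is a gene's estimated count scaled to a common library total. A gene was a member when its mean was at least 0.7 higher in hindgut and at least 0.5 higher in Hoxd13 midgut 1 to 3, each against control midgut. Every hindgut library and each of these Hoxd13 libraries also had to lie above every control midgut library. Of the 12931 genes with enough counts for a statistical fit, 1.44% met the whole rule. In these, 9.13% had every hindgut above every control midgut and 20.9% had every one of Hoxd13 midgut 1 to 3 above every control midgut. The likely viral insert, ENSGALG00000032039, met the conditions and was left out.

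Hoxd13 is a Hox gene, one of a family of transcription factors whose members are switched on in overlapping domains along the body axis. The Hox genes at the 5′ end of each cluster, Hoxd13 among them, act in the most posterior tissues, including the mesoderm around the hindgut. The splanchnic mesoderm wraps the endodermal tube and gives rise to the smooth muscle and connective tissue of the gut wall. Its regional differences are known to instruct how the inner lining is shaped in the small and the large intestine, which develop from the midgut and the hindgut.

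Messenger RNA was sequenced in 4 libraries per group from mesoderm dissected free of endoderm. The Hoxd13 midgut group came from midgut with genotype RCAS-Hoxd13, where RCAS is a retroviral vector that spreads in avian cells. The control hindgut and control midgut groups carried the label RCAS-mGFP, the same vector with a GFP reporter, so every group is labelled as carrying the vector. The design text speaks of the control tissues as wild-type. Constructs were electroporated in ovo at stage HH17 into the lateral plate mesoderm at the level of the midgut, per the labels, and how far the hindgut libraries carry the control virus is not given there. The labels list 24 samples, 12 at day 12 and 12 at day 14 of incubation, in 2 tables that differ in 0 of 205632 values. They were therefore read as 1 set of 12 libraries of unknown age. Whether the libraries came from separate embryos is not stated, so the spread between them may be technical.

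No gene symbols accompany the IDs in the tables, and 0 of the 17136 IDs matched the reference gene table. Roles of the members, the identity of the misexpressed gene, and markers of mesoderm or of any other cell type could therefore not be looked up, and 4 members are named by ID. In these bulk samples, fewer cells of a type and less RNA per cell cannot be told apart. Library totals ran from 7607185 to 10880695 counts. Hoxd13 midgut 4 stood apart: it had counts in 13480 genes, where the other 11 libraries had counts in 14565 to 14832, and its 100 most abundant genes held 34.0% of its counts against 21.7% to 24.1% elsewhere. It was not used to choose the members. Its levels are given separately. The edgeR fit of all groups, and the edgeR fits of only the compared groups without a replicate block, are given also without it. The other fits of Hoxd13 midgut, with DESeq2, with a replicate block or without another library, include it.

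As a group, the members were above control midgut in both other groups, and further above it in hindgut than in Hoxd13 midgut. Averaged over the 187 members, log2(CPM + 1) lay 0.86, 0.86 and 1.17 above the control midgut mean in Hoxd13 midgut 1, 2 and 3, and 0.86 above it in Hoxd13 midgut 4. In control hindgut 1 to 4 it lay 1.34, 1.43, 1.61 and 1.32 above that mean, and in control midgut 1 to 4 at -0.07, 0.01, 0.02 and 0.04 around it. The mean shift was 0.96 ± 0.18 in Hoxd13 midgut 1 to 3 (SD, n = 3) and 1.43 ± 0.13 in control hindgut (SD, n = 4). Hoxd13 midgut 3 was the highest of its group, and no Hoxd13 midgut library reached the lowest hindgut library. The direction of these shifts was fixed by the choice of members and carries no test. The rule also favoured larger shifts in hindgut than in Hoxd13 midgut through its higher minimum for hindgut.

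**Figure D1:**
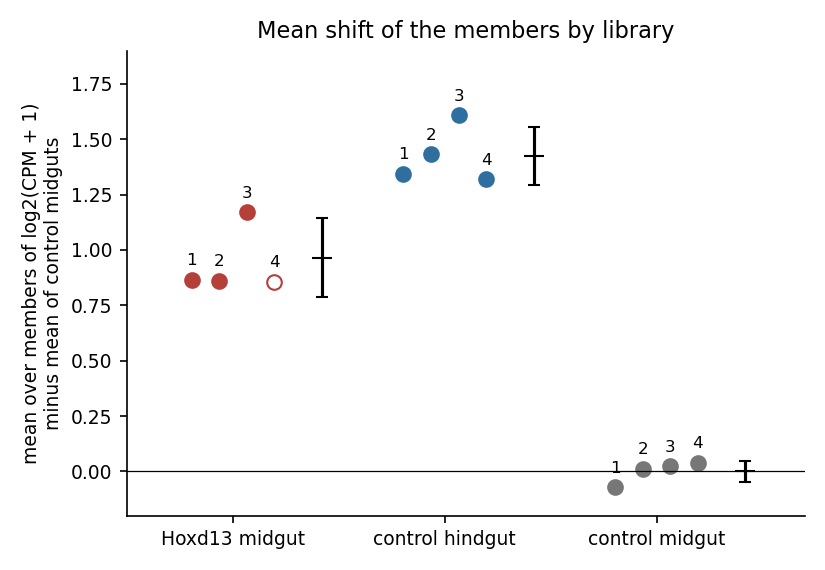
Mean over the 187 members of log2(CPM + 1) minus the control midgut mean, on the vertical axis, for each library in its group, with replicate numbers. Bars give mean and SD of the filled points, and the open point is Hoxd13 midgut 4, which was not used to choose the members. Hoxd13 midgut 1 to 3 sit between 0.86 and 1.17, and the hindgut libraries between 1.32 and 1.61.

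Summed over members, the abundance was 7219, 7966, 9226 and 9176 CPM in Hoxd13 midgut 1 to 4. It was 9904, 10847, 13101 and 10255 CPM in control hindgut 1 to 4, against 4090, 4705, 4828 and 4510 CPM in control midgut 1 to 4. The ranges of the groups did not overlap, with every Hoxd13 midgut sum between those of hindgut and of control midgut. For any set of members, the rule fixed that hindgut and Hoxd13 midgut 1 to 3 lay above control midgut. It did not fix the order of Hoxd13 midgut and hindgut, or the level of Hoxd13 midgut 4. Its minimum differences, 0.7 in hindgut and 0.5 in Hoxd13 midgut, do favour hindgut above Hoxd13 midgut, so that order is a description. The 2 members with the most counts held 3283 CPM of the mean hindgut sum of 11027 CPM. Without those members the sum was 5830 ± 626 CPM in Hoxd13 midgut 1 to 3 (SD, n = 3), 5898 CPM in Hoxd13 midgut 4, 7744 ± 898 CPM in control hindgut and 3159 ± 223 CPM in control midgut (SD, n = 4 each), which kept the same order.

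The scale by which libraries are compared moves these shifts. With library totals as the scale, the median of the 12931 genes tested lay 0.15 higher in Hoxd13 midgut 1 to 3 than in control midgut. With TMM scaling, which sets the bulk of genes equal between libraries, that median was 0.03. The median member shift was 0.85 and 0.74 on these scales. In hindgut the median member shift was 1.16 with library totals and 1.11 with TMM, where the median of all genes was 0.04 and -0.01. With library totals, the rule required all 187 members to have a positive mean difference in both groups. With TMM all 187 were still positive, and 133 of them still met the whole rule.

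Individual members differed widely in the size of their shifts. In Hoxd13 midgut 1 to 3 the shift ran from 0.51 to 2.65, with quartiles of 0.65 and 1.15, and 67 members shifted by at least 1 on this log2 scale. In hindgut the shift ran from 0.70 to 4.96, with quartiles of 0.89 and 1.67, and 114 members shifted by at least 1. A shift of at least 2 was seen in 5 members in Hoxd13 midgut and in 31 in hindgut. The offset of 1 CPM shrinks the differences of genes with low counts. Mean counts reached at least 100 per library in 109 members and were under 10 in 2.

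**Figure D2:**
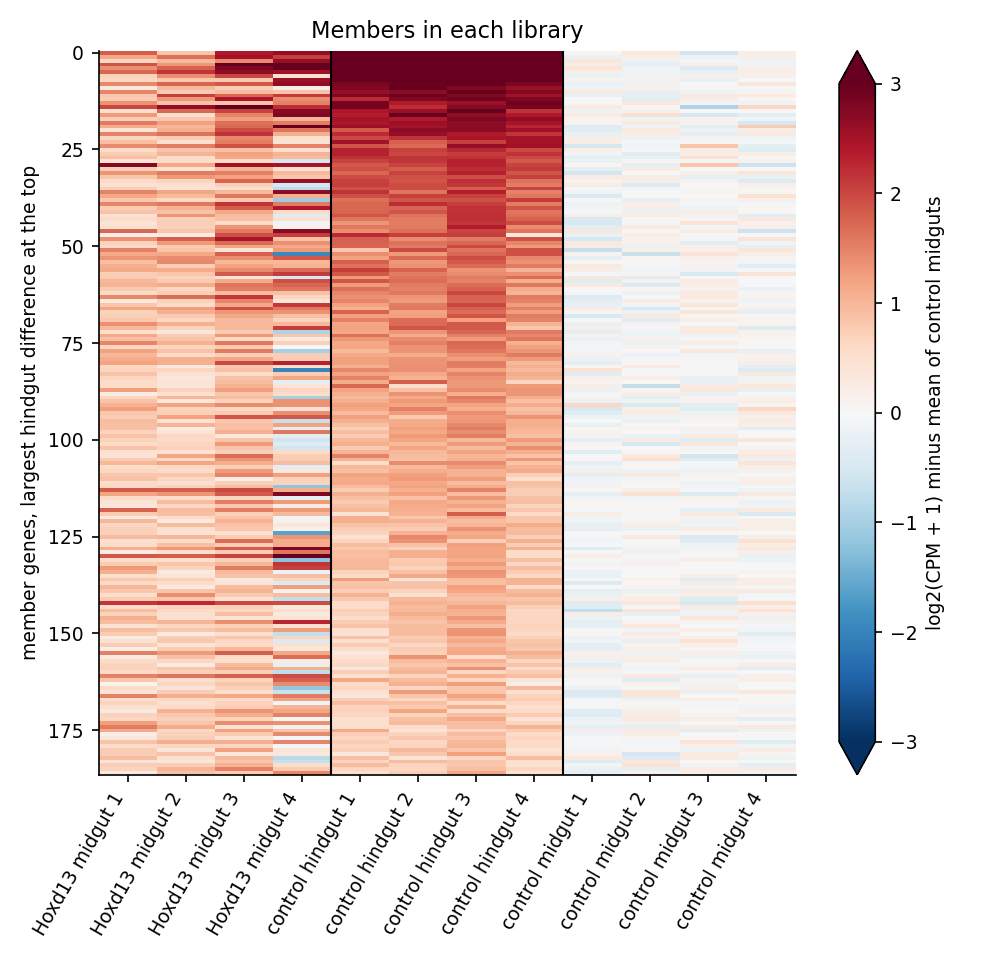
Each row is a member, sorted by its hindgut difference, and each column a library. Colour gives log2(CPM + 1) minus the mean of the control midguts, with values past 3 in either direction at the end colours. Hoxd13 midgut 1 to 3 are paler than hindgut for most rows near the top. The rule keeps Hoxd13 midgut 1 to 3 above every control midgut in each row. Hoxd13 midgut 4, which the rule did not use, has some members below the control midgut mean.

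The member with the largest value of its smaller difference was ENSGALG00000002452. It was at 20.5, 32.9 and 50.5 CPM in Hoxd13 midgut 1 to 3 and at 23.8 CPM in Hoxd13 midgut 4. In control hindgut 1 to 4 it was at 37.9, 23.7, 34.3 and 37.1 CPM, against 5.32, 4.47, 1.84 and 7.15 CPM in control midgut 1 to 4. Its levels in Hoxd13 midgut and hindgut overlapped. Both groups lay clear of control midgut, which the rule requires of hindgut and of Hoxd13 midgut 1 to 3. The gene was picked for the size of these differences. The mean was 34.6 ± 15.1 CPM in Hoxd13 midgut (SD, n = 3) and 33.2 ± 6.54 CPM in hindgut (SD, n = 4), a 7.37-fold and a 7.08-fold excess over the control midgut mean of 4.70 ± 2.21 CPM (SD, n = 4).

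The member with the highest CPM in hindgut was ENSGALG00000028567, a rank that also depends on transcript length. It was at 1293, 1928 and 1811 CPM in Hoxd13 midgut 1 to 3 and at 2841 CPM in Hoxd13 midgut 4. In control hindgut 1 to 4 it was at 1463, 1753, 2343 and 1420 CPM, against 905, 1151, 1196 and 976 CPM in control midgut 1 to 4. Its hindgut and Hoxd13 levels overlapped here too. Its hindgut difference of 0.702 was the smallest of all members, so it was only just inside the minimum of 0.7.

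**Figure D3:**
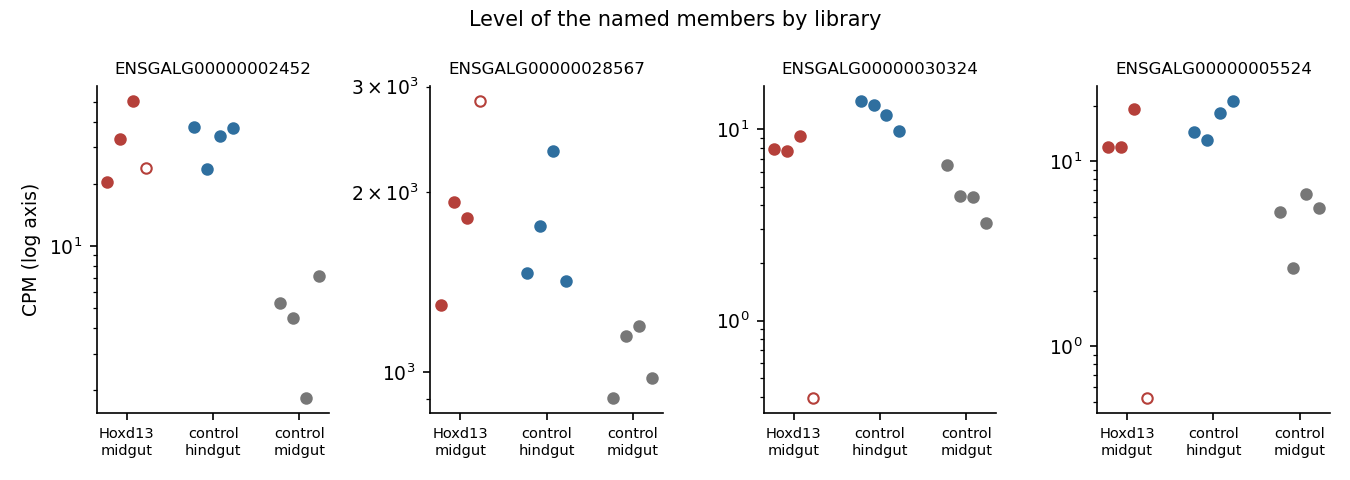
CPM on a log axis in each library for the 4 members named by ID, by group. The open point is Hoxd13 midgut 4. It lies above control midgut in ENSGALG00000002452 and ENSGALG00000028567 and below it in ENSGALG00000030324 and ENSGALG00000005524.

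The minimum differences cut through a continuous range. In hindgut the members closest to the minimum had differences of 0.702, 0.710 and 0.720, and genes that met all other conditions but fell short had 0.692, 0.691 and 0.680. In Hoxd13 midgut the corresponding values were 0.507, 0.509 and 0.510 inside and 0.496, 0.492 and 0.491 outside. In all, 107 genes missed membership through the hindgut minimum alone and 46 through the Hoxd13 minimum alone.

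In most members the Hoxd13 shift was smaller than the hindgut shift. The Hoxd13 shift divided by the hindgut shift had a median of 0.71 over members, with quartiles of 0.55 and 0.88. With TMM-scaled totals the median was 0.61, so this share depends on the scale. Both shifts are measured from the same control midguts. The rule's minimum was 0.5 for the Hoxd13 shift and 0.7 for the hindgut shift, which admits shares under 1 more readily than shares above 1. The share is therefore a description of the chosen genes. The share was under 0.5 in 33 members, from 0.5 to under 1 in 121 and at least 1 in 33. Taken from each library alone, the median share was 0.63, 0.60 and 0.81 in Hoxd13 midgut 1, 2 and 3, an SD of 0.11, and 0.60 in Hoxd13 midgut 4.

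The extremes of this share show how different the members were. The lowest share, 0.23, belonged to a member at 1.29, 1.62 and 1.59 CPM in Hoxd13 midgut 1 to 3, at 11.8, 11.3, 16.6 and 11.4 CPM in control hindgut 1 to 4, and at 0.28 to 0.64 CPM in the control midguts. In Hoxd13 midgut 4 it was at 7.89 CPM, above the other Hoxd13 midguts and below every hindgut. The offset of 1 CPM weighs on a member this low, and takes a larger proportion of its Hoxd13 shift than of its hindgut shift. A 3.03-fold mean excess in Hoxd13 midgut 1 to 3 gave a shift of 0.75, and a 25.8-fold excess in hindgut gave 3.19. The highest share, 2.46, belonged to a member at 56.2, 61.0 and 50.2 CPM in Hoxd13 midgut 1 to 3, at 18.0, 25.3, 24.0 and 23.3 CPM in control hindgut 1 to 4, and at 8.18 to 17.04 CPM in the control midguts. There the Hoxd13 midguts lay above every hindgut, and Hoxd13 midgut 4, at 48.9 CPM, did as well.

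Between Hoxd13 midgut 1 to 3 and hindgut the libraries overlapped in 118 members. Every Hoxd13 midgut lay below every hindgut in 64 members, or 34.2%, where 6.35% of all genes tested had this order. With TMM-scaled totals the member share was 46.0%, so these counts depend on the scale. Leaving out a library, which can only keep or raise the share, gave 34.8% to 50.8%. No share of all genes was taken for those settings. Every Hoxd13 midgut lay above every hindgut in 5 members, where 13.6% of all genes tested had that order. The members were selected for high hindgut values, so these counts are a description. The hindgut level of some members was far from reached: the member with the largest hindgut shift was at 5.68, 2.38 and 9.14 CPM in Hoxd13 midgut 1 to 3, at 59.2, 65.2, 54.5 and 55.8 CPM in control hindgut 1 to 4, and at 0.28 to 1.38 CPM in control midgut.

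The size of the hindgut shift went with a smaller share. In the 40 members with the largest hindgut shifts, 1.88 to 4.96, the median shift was 1.18 in Hoxd13 midgut and 2.47 in hindgut, and the median share was 0.47. In the 40 members with the smallest, 0.70 to 0.84, the median shift was 0.66 in Hoxd13 midgut and 0.76 in hindgut, and the median share was 0.85. Every one of Hoxd13 midgut 1 to 3 lay below every hindgut in 31 of the first 40 and in 1 of the last 40. This order held in 6.35% of all genes tested. The share has the hindgut shift as its denominator and the Hoxd13 minimum of 0.5 bounds it from below, so part of this pattern is set by the rule and no test was made.

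**Figure D4:**
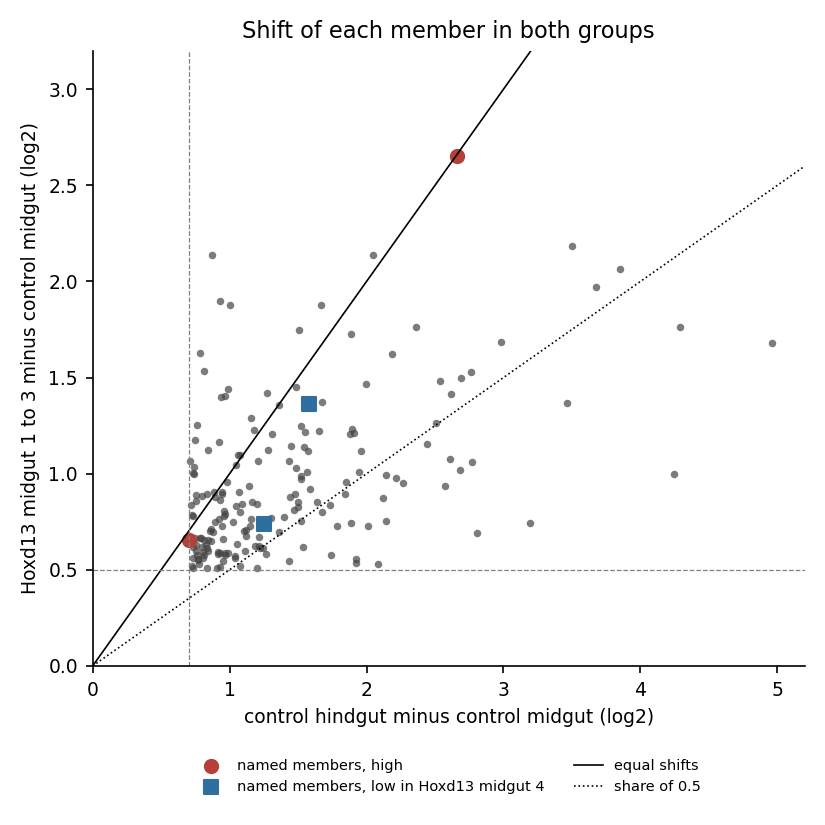
Each point is a member, with its hindgut difference on the horizontal axis and its Hoxd13 midgut 1 to 3 difference on the vertical axis, both against control midgut in log2(CPM + 1). Dashed lines mark the minimum differences, the solid line equal shifts and the dotted line a share of 0.5. Most points lie between the solid and the dotted line, and those with hindgut differences above 3 all lie below the solid line.

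The libraries of a group did not carry the members evenly. Hoxd13 midgut 3 had the highest level of Hoxd13 midgut 1 to 3 in 122 members, or 65.2%, where it was highest in 34.7% of all genes tested. Hoxd13 midgut 1 and 2 were highest in 34 and 31 members, where they were highest in 36.4% and 28.8% of all genes tested. In hindgut, control hindgut 3 was highest in 106 of the 187 members. It also led most often over all genes tested, in 46.6%, a smaller share than among the members. Its lead was therefore not particular to the members, though it was larger in them. Control hindgut 1, 2 and 4 were highest in 28, 33 and 20 members, and led in 15.8%, 19.4% and 18.2% of all genes tested. The likely viral insert, ENSGALG00000032039, was at 2049, 3064 and 4134 CPM in Hoxd13 midgut 1, 2 and 3 and at 6129 CPM in Hoxd13 midgut 4. It was at 24.5, 21.5, 30.4 and 59.0 CPM in control hindgut 1 to 4 and at no more than 0.834 CPM in control midgut. What this ID measures in the hindgut libraries, labelled RCAS-mGFP, was not tested. The part of this ID in the higher level of members in Hoxd13 midgut 3 was not tested. Same-numbered hindgut and midgut controls gave mean member differences of 1.42, 1.42, 1.59 and 1.28 for numbers 1 to 4, and all 187 members were higher in hindgut within every such pair, an order the rule itself requires.

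Hoxd13 midgut 4, which the rule did not use, lay above every control midgut in 140 of the 187 members, or 74.9%. Of all genes tested, 32.3% did so. It lay below every control midgut in 30 members, or 16.0%, against 49.4% of all genes tested, and within their range in 17. The median member was 0.88 higher in Hoxd13 midgut 4 than the control midgut mean and higher in 147 of 187 members, where the median of all genes tested was 0.24 lower (log2 difference of -0.24). With TMM scaling the counts were 148 above and 23 below, the median member difference was 1.05 and that of all genes was -0.04, with 40.8% of all genes above every control midgut. This is 1 library without a replicate, and it is set against control midguts that the rule selected to be low in these genes.

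Genes that met only part of the rule were selected on the same control midguts. Among 306 genes that met the hindgut conditions and missed those of Hoxd13 midgut, Hoxd13 midgut 4 lay above every control midgut in 96, or 31.4%, and their median difference was -0.24. Among 829 genes that met the Hoxd13 conditions and missed those of hindgut, it did so in 642, or 77.4%, with a median difference of 0.81. The members stood near the second of these sets in Hoxd13 midgut 4, and the first stood near the background of all genes. The difference between the sets was not tested, because all values come from 1 library.

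**Figure D5:**
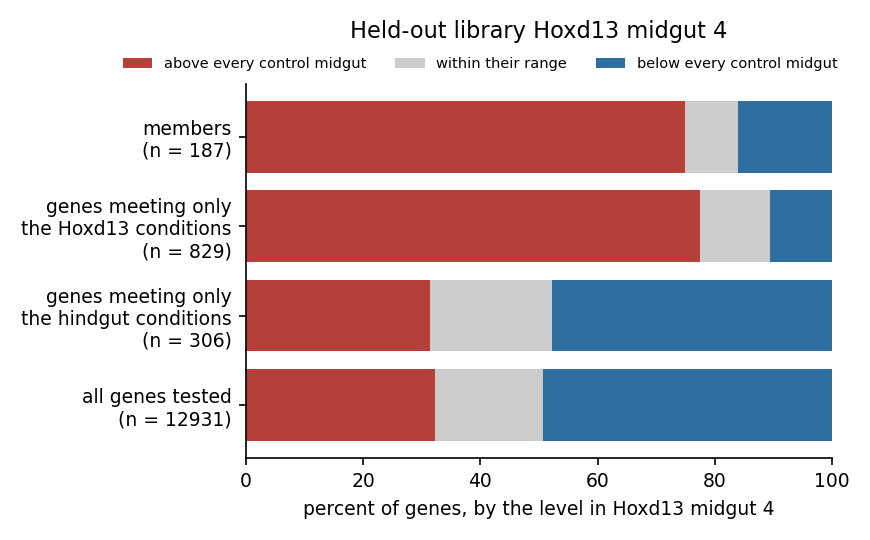
Percent of genes, on the horizontal axis, whose level in Hoxd13 midgut 4 lay above, within or below the range of the 4 control midguts, for the members, for genes meeting only the Hoxd13 conditions, for genes meeting only the hindgut conditions and for all genes tested. The share above every control midgut is 74.9% in members and 32.3% in all genes tested.

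The members above control midgut in Hoxd13 midgut 4 included genes with few and with many counts. Among members with a mean of at least 10 CPM in Hoxd13 midgut 1 to 3, 80 of 106 lay above every control midgut in it, and among those under 10 CPM, 60 of 81 did. Of the 40 members with the largest hindgut shifts it was above in 36, and of the 40 with the smallest in 27. Over all genes tested it was above every control midgut in 32.3%. The first 40 also had larger shifts in Hoxd13 midgut 1 to 3, a median of 1.18 against 0.66, so these counts are a description of chosen genes. Within its own group, Hoxd13 midgut 4 lay above the other Hoxd13 midguts in 55 members, below them in 78 and among them in 54, where over all genes tested it was above in 23.4% and below in 57.8%. It had 0 counts in 4 members.

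The members furthest below control midgut in Hoxd13 midgut 4 were ENSGALG00000030324 and ENSGALG00000005524. ENSGALG00000030324 was at 7.83, 7.72, 9.24 and 0.39 CPM in Hoxd13 midgut 1 to 4, at 14.1, 13.3, 11.9 and 9.80 CPM in control hindgut 1 to 4, and at 6.50, 4.47, 4.41 and 3.22 CPM in control midgut 1 to 4. ENSGALG00000005524 was at 11.9, 12.003, 19.1 and 0.53 CPM in Hoxd13 midgut 1 to 4, at 14.4, 13.1, 18.2 and 21.2 CPM in control hindgut 1 to 4, and at 5.32, 2.66, 6.62 and 5.60 CPM in control midgut 1 to 4. In both genes Hoxd13 midgut 1 to 3 were above every control midgut, which the rule requires, and Hoxd13 midgut 4 was the lowest of all 12 libraries. Their difference in Hoxd13 midgut 4 was -1.99 and -1.94.

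In a fit of all 12 libraries across all genes with edgeR's quasi-likelihood test, 186 of the 187 members had enough counts to be tested. The rule used these contrasts, so the calls at an adjusted p under 0.05 are a description. In Hoxd13 midgut against control midgut 108 members were called higher, where 2.54% of all genes were. In hindgut against control midgut 128 were called higher, where 2.36% of all genes were. With Hoxd13 midgut 4 left out, the counts were 82 in Hoxd13 midgut and 175 in hindgut, where 1.41% and 4.75% of all genes were called higher.

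The count in Hoxd13 midgut moved with other libraries and with the model. Leaving out control midgut 1, 2, 3 or 4 brought it to 30, 41, 27 or 24 members, where 0.329%, 0.481%, 0.283% or 0.267% of all genes were called higher. Leaving out control hindgut 1 or 2 brought it to 47 or 45 members, where 0.559% or 0.529% of all genes were. Leaving out Hoxd13 midgut 3 brought it to 23, where 0.276% of all genes were. The background thus moved with the members' count. An edgeR fit of Hoxd13 midgut and control midgut alone called 47 members higher, where 0.656% of all genes were. With the replicate number as a block in that fit 0 of the 179 members tested were called, where 0.0158% of all genes were. There 133 members had an unadjusted p under 0.05, a count that the rule favours because it used this contrast. The share of all genes with such a p was not taken. DESeq2 called 138 members higher, where 6.85% of all genes were. The hindgut count was 97 to 105 without each control midgut (1.48% to 1.55% of all genes) and 104 to 109 without each control hindgut (1.6% to 1.75%). It was 110 with the block in the fit of all 3 groups (1.86%). It was higher in other fits, with 167 members in a fit of hindgut and control midgut alone (4.96% of all genes), 181 with the block there (7.71%) and 156 by DESeq2 (3.3%).

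Set directly against hindgut in the edgeR fit of all libraries, 36 members were called lower in Hoxd13 midgut, where 2.1% of all genes were. Called higher were 3 members, where 1.94% of all genes were. With Hoxd13 midgut 4 left out, 54 were called lower, where 3.28% of all genes were, and 4 higher, where 2.44% were. With control hindgut 4 left out, the lower count was 22, where 0.818% of all genes were called lower. A fit of these groups alone called 21 members lower (0.663% of all genes), the block there 3 (0.0711%), and DESeq2 59 (9.01%). The other members did not pass the test in either direction, which does not show that they reached the hindgut level.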

How the data were processed

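The authors deposited 2 tables of estimated counts for Ensembl genes, all of them whole numbers. Salmon, DESeq2 and the build GRCg6a are named without roles or versions, per the submitters' processing notes, and no annotation release is given in the sources used here. Both tables held the same values, so the planned reading as 2 ages was not made. Column totals gave CPM, and the rule for membership was applied to log2(CPM + 1). The members, lists and tests were chosen with earlier results of these data known. Gene lists and cell type markers had 0 matched IDs and gave no result. The named IDs are the members with the largest smaller difference, the highest hindgut CPM and the 2 lowest differences of Hoxd13 midgut 4 from control midgut.

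Counts were fitted in R 4.3.3 with edgeR 4.0.16 (TMM, filterByExpr with a minimum count of 10, robust quasi-likelihood F test, Benjamini-Hochberg over 12931 genes, 3 groups in 1 fit, no covariate). DESeq2 1.42.0 was an alternative. The steps were tested on simulated counts of independent libraries with the same spread setting for every gene. The simulation had no outlying library and no pairing, so it checks the steps and not their fit to these data. TMM factors ran from 0.838, in Hoxd13 midgut 4, to 1.10. Same-numbered hindgut and midgut controls deviated together (correlations across genes of 0.489, 0.435, 0.528 and 0.531 for numbers 1 to 4), so these numbers were taken to pair them, on the evidence of the counts alone. The 3-group fit without a covariate left this pairing out, and its hindgut count was 128 members (2.36% of all genes). With the replicate block in the fit of hindgut and control midgut alone the count was 181 (7.71%). Pairs with Hoxd13 midgut had weaker or negative correlations (-0.358 to 0.178), and numbers were not taken to pair them. The group mean behind these values included Hoxd13 midgut 4, so they do not show that pairing is absent.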

Additional observations from a re-analysis of the deposited data

Results flagged for a closer look

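A value far from its group was looked for in 24 sets of 4 libraries and found in 3. About 1 set in 20 holds one by chance where sets are independent and unselected. The sets here reuse the same libraries and members. Some hold named members that were picked for low values in Hoxd13 midgut 4, so that rate is only a rough guide. Averaged over the members, log2(CPM + 1) was 4.16 in Hoxd13 midgut 3, against 3.85 in each of the other Hoxd13 midguts, so the gap to the nearest was 0.977 of the group's range. Hoxd13 midgut 4 had counts in 13480 genes, against 14639 to 14809 in the other Hoxd13 midguts. Control midgut 1 had counts in 14818 genes, against 14659 to 14670 in the other control midguts. Gene by gene, Hoxd13 midgut 4 lay far below its group in 12 members and far above it in 5, and over all genes tested it did so in 8.45% and 1.27%.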

How the results depend on the processing

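Depth and 1 unreplicated held-out library limit these results, and the members' direction was fixed by their choice. The number of members, 187, was 109 with a mean count of at least 100, 53 with minimum differences of 1 and 1, 545 with no minimum, and 164 to 225 without each library in turn. These are changes to what qualifies. With TMM-scaled totals 133 genes qualified, and with Hoxd13 midgut 4 used in the rule 146 did, 139 of them among the 187. Members called higher in Hoxd13 midgut against control midgut, 108 (2.54% of all genes), numbered 47 (0.656%) in an edgeR fit restricted to both groups. Leaving out libraries in turn gave 23 to 134, with 36 of 13059 genes called at the low end (without Hoxd13 midgut 3) and 1305 of 13054 at the high end (without Hoxd13 midgut 1). With the replicate number as a block in that smaller edgeR fit the count was 0 of 179 members tested, where 0.0158% of all genes were called. There 133 members had an unadjusted p under 0.05, which the rule favours because it used this contrast. The share of all genes with such a p was not taken, so that count is a description only. DESeq2, run without a block, called 138 members (6.85% of all genes). Replicate numbers were not taken to pair Hoxd13 midguts with controls, as their correlations were -0.358 to 0.178. These correlations used deviations from a group mean that included the outlying Hoxd13 midgut 4. Low values therefore do not show that pairing is absent, and the count with the block is not set aside by them. Only Hoxd13 midgut 1 had its best match in the control midgut of its own number, at 0.178. With the block in the fit of the 3 groups the count was 79 (1.47% of all genes). Members called lower in Hoxd13 midgut against hindgut, 36 (2.1% of all genes), numbered 21 in the smaller fit (0.663%). They numbered 3 there with the replicate block (0.0711%) and 59 with DESeq2 (9.01%). Leaving out each library gave 22 (0.818%, without control hindgut 4) to 54 (3.28%, without Hoxd13 midgut 4). Without Hoxd13 midgut 1 the count was 42, where 10.9% of all genes were called lower. In hindgut against control midgut, where numbers pair the libraries, the block in the fit of the compared groups gave 181 members (7.71% of all genes). The counts were 167 there without the block (4.96%) and 128 in the fit of all groups (2.36%). Fits of the compared groups with Hoxd13 midgut 4 left out were chosen after seeing the data and gave 80 members higher than control midgut (1.8% of all genes) and 40 lower than hindgut (1.88%). The cause of these changes was not tested. The median share of the hindgut shift, 0.71, ran in its 16 alternatives from 0.61, with TMM-scaled totals, to 0.75, without control hindgut 3. The share of members above every control midgut in Hoxd13 midgut 4 was 74.9% to 79.7% in its 7 alternatives. Leaving out a control midgut gave 74.9% to 75.9% and can only keep or raise this share. With TMM it was 79.1%, where the share of all genes tested rose from 32.3% to 40.8%. The 79.7% came from upper-quartile scaling, for which no share of all genes was taken.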
